A study of Mus musculus with 6 samples.

Results

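The interferon-stimulated genes described here are the measured members of a list of 40 genes that interferons are known to induce. A member was measured when a probe set of the array matched that gene symbol and no other, and where several probe sets did, the one with the highest mean over all 6 arrays was taken. This gave 38 of the 40 members, among 13817 genes measured in the same way. Of the other members, Isg15, the ubiquitin-like modifier, was matched only by a probe set shared with another gene, and Ifi44 had no single-gene probe set in the annotation used here. The 38 members had 59 probe sets between them.

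RNA of the mouse tibial plateau, that is, its articular cartilage with the bone beneath, was measured on Affymetrix arrays, with 1 mouse per array. The mice were males aged 6 weeks on the C57Bl/6J background, and either wild-type or labelled Frzb-/-, that is, lacking the gene for frizzled-related protein, a secreted WNT antagonist. The wild-type group was animals 6-1, 8-1 and 9-1, and the Frzb-/- group used here was animals 14 and 17. The labels name no treatment for either group, and the comparison asks what the loss of Frzb changes in the joint tissues of a young mouse. The joint piece was cut at the growth plate, so it held marrow and some growth plate cartilage besides articular cartilage and bone. Fewer cells of a type and less RNA per cell cannot be told apart in such bulk samples.

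A mouse labelled Frzb-/- was left out by the study after repeated genotyping showed a heterozygote, and its animal number was not given. The study described this mouse as clustering with the wild-types. The array titled 6 carries the Frzb-/- label too and is given apart here. Its correlation with the wild-type arrays was 0.983 to 0.991 over all probe sets, and with animals 14 and 17 it was 0.940 to 0.957. The targeted gene went the other way. Frzb read 10.02, 10.79 and 10.16 on the wild-type arrays, 7.02 and 6.42 in animals 14 and 17, and 6.93 on the array titled 6, all as log2 RMA values. Frzb was therefore low on all 3 arrays labelled Frzb-/-. Animals 14 and 17 differed from wild-type by -3.61 on the log2 scale (limma adjusted p of 0.000994). To 3 decimals this is -3.606, the value that the study printed for Frzb, and it was obtained without the array titled 6.

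Interferons are secreted proteins, and those of type I are released by cells on sensing foreign or misplaced nucleic acid. Type I interferons act through factors that include STAT2 and IRF9 on the interferon-stimulated response element (ISRE) of target promoters, and interferon gamma acts on the gamma-activated site (GAS). The induced genes block virus replication, cut and present antigen, tag proteins with ISG15 and set the cell's readiness for the next signal, and many are also expressed at a resting level, in leukocytes among other cells.

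The promoter sequences show how far the members share that element. RefSeq promoter windows (mouse build GRCm38.p6), which run from 250 bases before to 50 bases after a gene's start, were found for 30 of the 38 members. The ISRE letters searched were GAAA, any 2 bases and GAAA again, on both strands and therefore also as TTTC, any 2 bases and TTTC. They occurred in 14 of those 30 members (46.7%) and in 3.99% of 27025 genes with a window. The GAS letters TTCNNNGAA, which read the same on both strands, occurred in 8 of the 30 members (26.7%) and in 9.55% of all genes.

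The windows of 4 members are printed because they had the largest differences between the groups that passed, 2 in each direction. Each is written 5′ to 3′ on the gene's own strand in lower case, with ISRE letters in capitals. They are Rsad2 (chr12:26456403-26456702, minus strand), Ube2l6 (chr2:84798578-84798877, plus strand), Ifit3 (chr19:34583279-34583578, plus strand) and Gbp2 (chr3:142620413-142620712, plus strand).
Rsad2: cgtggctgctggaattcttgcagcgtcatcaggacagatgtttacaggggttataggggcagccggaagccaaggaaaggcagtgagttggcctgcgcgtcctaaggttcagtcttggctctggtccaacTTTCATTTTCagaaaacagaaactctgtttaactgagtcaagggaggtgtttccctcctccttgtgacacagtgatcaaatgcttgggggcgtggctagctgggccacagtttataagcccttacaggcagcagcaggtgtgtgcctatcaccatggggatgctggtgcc
Ube2l6: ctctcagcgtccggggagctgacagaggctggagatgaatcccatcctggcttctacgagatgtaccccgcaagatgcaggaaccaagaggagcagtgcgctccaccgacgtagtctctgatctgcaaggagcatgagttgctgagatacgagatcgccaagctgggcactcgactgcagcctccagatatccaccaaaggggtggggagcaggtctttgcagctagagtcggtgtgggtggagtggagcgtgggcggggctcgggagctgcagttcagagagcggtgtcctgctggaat
Ifit3: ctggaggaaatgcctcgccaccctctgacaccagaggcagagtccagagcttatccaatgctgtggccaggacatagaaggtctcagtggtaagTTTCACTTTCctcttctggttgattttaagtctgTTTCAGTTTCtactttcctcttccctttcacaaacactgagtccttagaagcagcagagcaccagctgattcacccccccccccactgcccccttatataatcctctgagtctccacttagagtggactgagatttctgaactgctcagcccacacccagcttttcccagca
Gbp2: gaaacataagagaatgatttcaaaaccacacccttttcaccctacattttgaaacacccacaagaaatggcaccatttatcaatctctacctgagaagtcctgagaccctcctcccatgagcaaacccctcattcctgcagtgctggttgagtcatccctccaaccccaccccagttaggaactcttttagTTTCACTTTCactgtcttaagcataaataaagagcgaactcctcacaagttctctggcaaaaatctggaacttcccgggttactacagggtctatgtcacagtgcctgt
Rsad2, which was lower in Frzb-/-, and Ifit3 and Gbp2, which were higher, carried the letters. They began 120 bases before the start in Rsad2, 156 and 122 bases before it in Ifit3, and 59 bases before it in Gbp2. The Ube2l6 window held no match, which says only that these letters are not in this window.

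Other members are shown by the match and the 6 bases on either side of it, to let the sites of unlike genes be set beside each other. Trim30a, lower in Frzb-/-, has windows at 2 starts (chr7:104465144-104465443 and chr7:104446076-104446375, minus strand), with a match in each.
Trim30a, upstream start: ctttagTTTCTTTTTCtcagtt
Trim30a, downstream start: ttttagTTTCTTTTTCtcagtt
Ifit1: cttcagTTTCACTTTCcagtct
Oas1a: tctcggGAAATGGAAACTGAAAatctac
Stat2: ccctggTTTCAGTTTCctttcc
Eif2ak2: cgccggGAAAACGAAAcagaag
Ifit1 (window chr19:34640639-34640938, plus strand) held a second match 85 bases before its start, and the one printed begins 104 bases before it. Oas1a (chr5:120907476-120907775, minus strand) held overlapping matches. The Stat2 match (chr10:128270248-128270547, plus strand) was 222 bases before the start and that of Eif2ak2 (chr17:78882523-78882822, minus strand) 18 bases after it. None of these last 4 genes passed the test below. Ifih1, Gbp3, Ddx58, Bst2, Irgm1 and Igtp also held ISRE letters.

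In Frzb-/- tissue the interferon-stimulated genes did not move as one group. Ifit3 and Gbp2 were up-regulated, by 2.6-fold and 2.3-fold, whereas Rsad2, Ube2l6, Cmpk2 and Trim30a were down-regulated, by 5.18-fold, 4.11-fold, 2.4-fold and 2.15-fold. The other 32 members did not pass. A gene passed when the adjusted p of limma's moderated test, over all 30618 probe sets, was under 0.01 and the log2 difference exceeded 1 in size. Over all genes 3.03% passed as higher and 6.02% as lower, 9.05% together, against 5.26%, 10.5% and 15.8% of the members. Counts of 2 and 4 genes are too small to set the members apart from that background. Without the fold minimum, 13 members had a limma adjusted p under 0.05, and over all genes 29% did. The counts moved with single arrays, as did those over all probe sets. The higher genes numbered 1 without animal 6-1 or 8-1 and 0 without animal 17 (13 members of either direction had an unadjusted limma p under 0.05 there), and the lower genes 2 without animal 8-1 or 14 and 1 without animal 17. Over all probe sets, 717 passed as higher and 1558 as lower, against 97 and 335 without animal 17, 298 and 676 without 8-1, 355 and 1506 without 14, and 570 and 1234 without 6-1. The differences of the members that passed stayed on the same side: over the fits that left out 1 array, they ran from 1.10 to 1.66 for Ifit3, 1.16 to 1.25 for Gbp2, -2.61 to -2.13 for Rsad2, -2.18 to -1.85 for Ube2l6, -1.40 to -1.06 for Cmpk2 and -1.21 to -1.02 for Trim30a. The median log2 difference of the members was 0.00, with 20 positive and 18 negative, against a median of 0.04 over all genes.

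The arrays of animals 14 and 17 both lay above all wild-type arrays for 13 members and both below for 11, and the groups overlapped for 14. Over all genes the corresponding shares were 31% above and 28.1% below, so the members separated about as often as other genes. For 30 of the 38 members the 95% interval of the difference lay wholly between -1 and 1, so that a doubling or halving was outside it. The same held for 10694 of all 13817 genes, so the members did not stand apart in this.

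**Figure D1:**
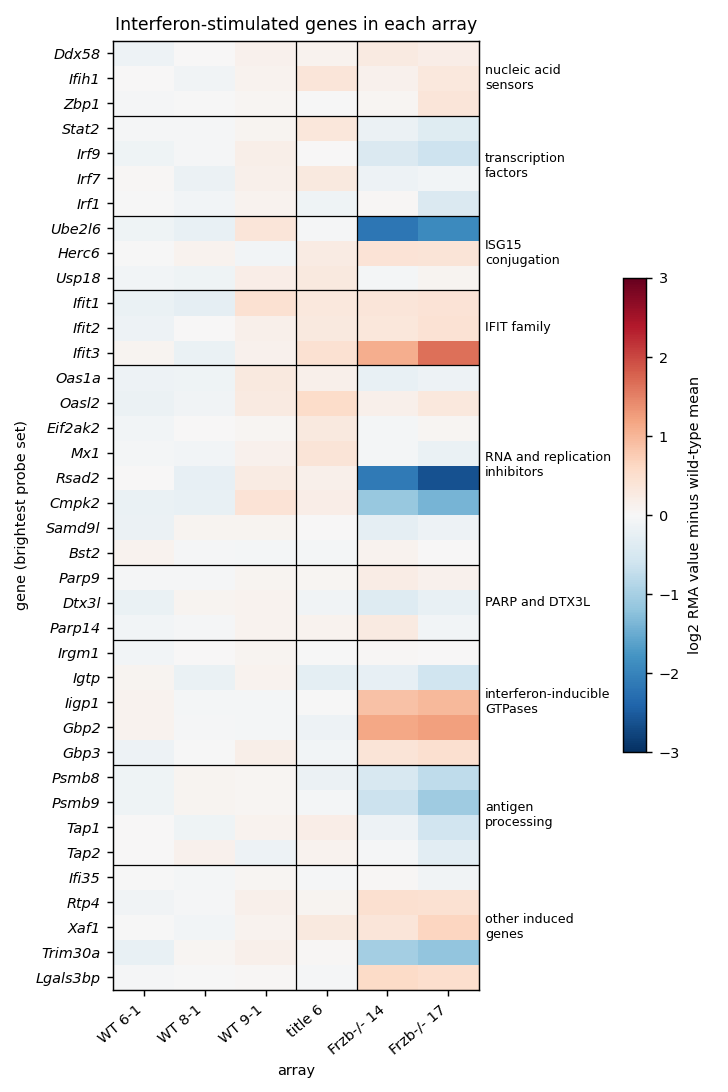
Log2 RMA value of each of the 38 members on each of the 6 arrays, as the difference from the mean of the 3 wild-type arrays of that member (colour scale, log2 units). Members are ordered by role. Rsad2, Ube2l6, Cmpk2 and Trim30a are low in animals 14 and 17, and Ifit3 and Gbp2 are high. For these 6 genes the array titled 6 is nearer to the wild-type mean than to the mean of animals 14 and 17.

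**Figure D2:**
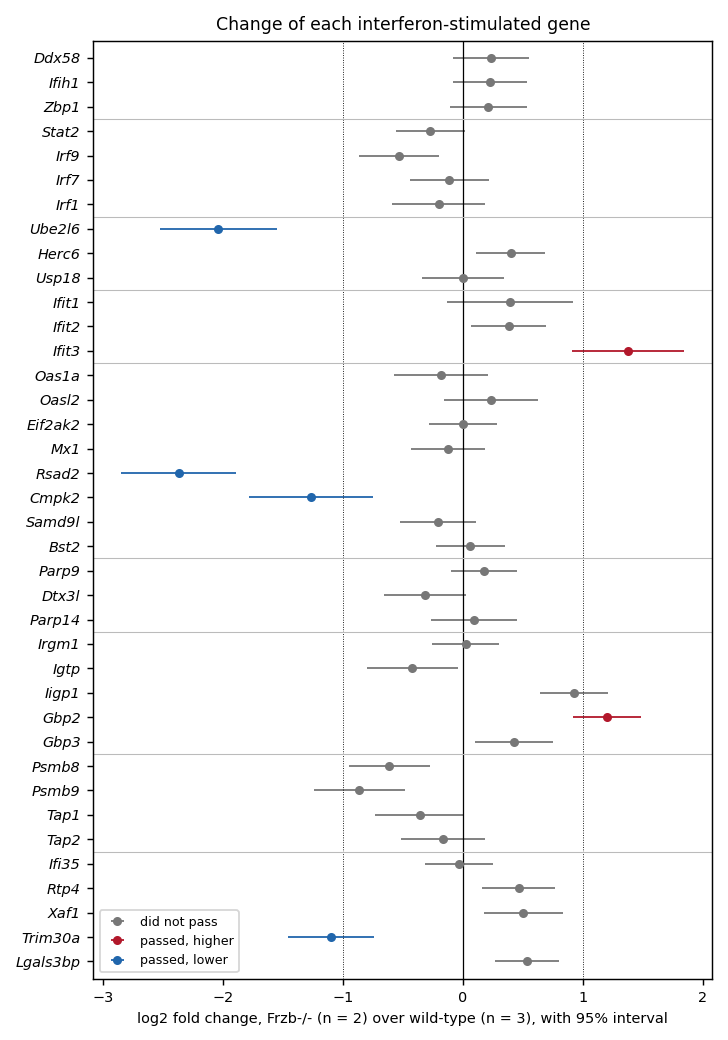
Log2 difference between the Frzb-/- arrays (animals 14 and 17) and the 3 wild-type arrays for the 38 members, with limma's 95% interval as bars. Red and blue mark members that passed as higher and as lower, grey the others, and the dotted lines the fold minimum. Rsad2 lies at -2.37 and Ifit3 at 1.38, and most intervals lie between -1 and 1.

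Rsad2 and Cmpk2 are neighbouring genes of antiviral nucleotide metabolism, and both were lower. Rsad2, with the largest difference of the 38 members, encodes viperin, a radical SAM enzyme that turns the nucleotide CTP into a chain terminator of virus replication. It read 12.59, 12.32 and 12.81 in wild-type, 10.44 and 9.96 in Frzb-/-, and 12.73 on the array titled 6. Both Frzb-/- values lay below all wild-type values, with a log2 difference of -2.37 ± 0.20 (SE, n = 3 and 2) and a limma adjusted p of 0.00106. The other 2 probe sets of Rsad2 gave -2.64 and -2.32, each with a limma adjusted p of 0.000878. It remained past the thresholds when any 1 array was left out.

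Cmpk2, a mitochondrial nucleotide kinase, starts 12.8 kb from Rsad2 on chromosome 12 and runs in the opposite direction. It read 8.49, 8.48 and 9.11 in wild-type, 7.56 and 7.29 in Frzb-/-, and 8.90 on the array titled 6. The groups did not overlap, and animal 9-1 stood above the other wild-type mice. The log2 difference was -1.27 ± 0.22 (SE, n = 3 and 2), with a limma adjusted p of 0.00731. It rests on the brighter of 2 probe sets, since the dimmer gave -0.51 with a limma adjusted p of 0.035. Of the 5 fits that each left out 1 array, Cmpk2 passed in 1, the one without animal 9-1.

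Among the genes of the ISG15 pathway, 1 of 3 passed. Ube2l6, the conjugating enzyme that hands ISG15 to its targets, read 8.68, 8.59 and 9.19 in wild-type, 6.64 and 6.92 in Frzb-/-, and 8.77 on the array titled 6. The Frzb-/- values were both below all wild-type values by more than the spread within either group. The log2 difference was -2.04 ± 0.20 (SE, n = 3 and 2), with a limma adjusted p of 0.00132, which was lost without animal 17. Herc6, the main ISG15 ligase in mice, had a difference of 0.40 at its brightest probe set (limma adjusted p of 0.0507), while its 3 dimmer probe sets gave -0.34 to -0.49. The direction for Herc6 therefore depends on the probe set. Usp18, which removes ISG15 and restrains the interferon receptor, had a difference of 0.00 with a 95% interval of -0.34 to 0.35.

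The IFIT proteins, which bind virus RNA that lacks the host's cap marks, are encoded side by side on chromosome 19, with the start of Ifit3 32.8 kb from that of Ifit2 and 57.4 kb from that of Ifit1. Ifit3 read 6.75, 6.47 and 6.82 in wild-type, 7.78 and 8.33 in Frzb-/-, and 7.13 on the array titled 6. It was up-regulated by 1.38 ± 0.20 on the log2 scale (SE, n = 3 and 2), with a limma adjusted p of 0.00384 and no overlap between the groups. The call was lost when animal 6-1, 8-1 or 17 was left out.
The neighbours of Ifit3 had smaller differences and did not pass. Ifit2 read 7.12, 7.27 and 7.40 in wild-type against 7.59 and 7.69 in Frzb-/-, a log2 difference of 0.38 (limma adjusted p of 0.077). Ifit1 read 6.43, 6.36 and 7.07 against 6.99 and 7.03, a log2 difference of 0.39 (limma adjusted p of 0.237), and its groups overlapped at animal 9-1.

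The interferon-inducible GTPases attack the membranes of vacuoles that hold parasites or bacteria. Gbp2, a guanylate-binding protein, read 7.78, 7.65 and 7.63 in wild-type, 8.85 and 8.93 in Frzb-/-, and 7.53 on the array titled 6. The difference was 1.202 ± 0.12 on the log2 scale (SE, n = 3 and 2), with a limma adjusted p of 0.00128 and both Frzb-/- values above all wild-type values. The probe set taken for Gbp2 carries a suffix that marks probes shared with similar sequences, and a second probe set without it gave 1.18 (limma adjusted p of 0.00133). The call was lost without animal 17. Gbp3, whose start is 60.6 kb from that of Gbp2 on chromosome 3, had a difference of 0.43 (limma adjusted p of 0.0589) and no overlap between the groups.
Iigp1, an immunity-related GTPase, fell just outside the thresholds. It read 8.14, 7.99 and 7.99 in wild-type, 8.91 and 9.02 in Frzb-/-, and 8.02 on the array titled 6, so that the groups were well apart. Its log2 difference of 0.92 (limma adjusted p of 0.00281) missed the minimum of 1, and its second probe set gave 0.89. Of the regulatory members of that family, Irgm1 had a difference of 0.02 and Igtp of -0.42, and neither passed. The GTPases thus held both Gbp2, which passed as higher, and Igtp, whose Frzb-/- values pointed the other way without passing.

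**Figure D3:**
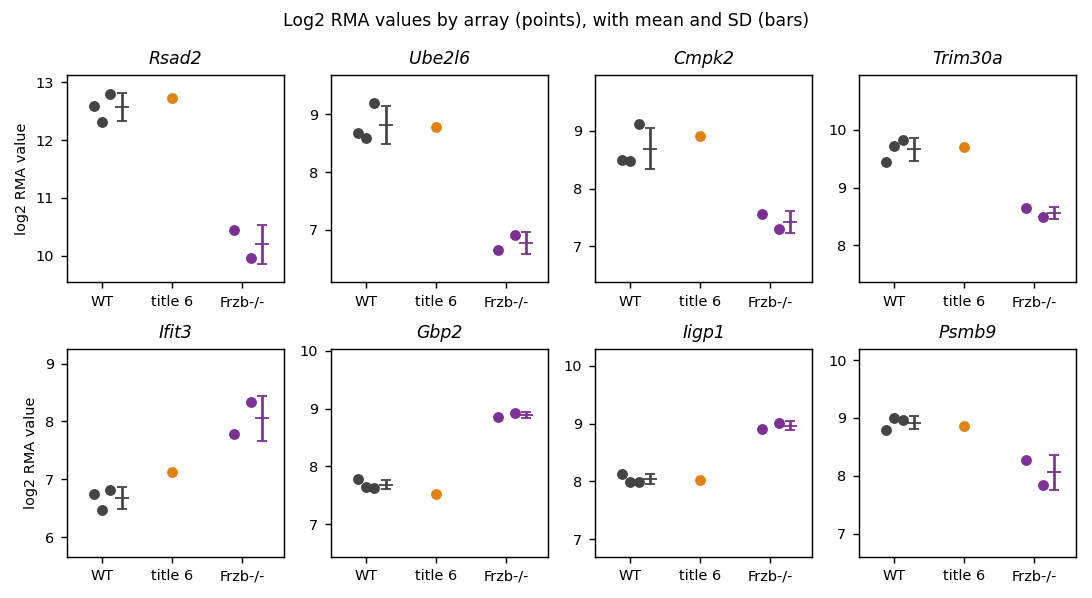
Log2 RMA values of the 6 members that passed and of the 2 that missed only the fold minimum, by array. Points are single arrays of the wild-type group, the Frzb-/- group and the array titled 6, and the bars beside them give the group mean and SD. In Rsad2 the wild-type arrays lie between 12.32 and 12.81 and the Frzb-/- arrays at 10.44 and 9.96.

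The genes of antigen processing, which cut proteins and carry the peptides to class I molecules, all had negative differences, and none passed. Psmb9, an immunoproteasome subunit, read 8.79, 9.00 and 8.97 in wild-type and 8.27 and 7.85 in Frzb-/-, without overlap. Its log2 difference of -0.86 had a limma adjusted p of 0.00976 and missed only the fold minimum. Psmb8, another subunit, had -0.61 (limma adjusted p of 0.0215), Tap1 -0.36 and Tap2 -0.17, the latter pair forming the peptide transporter of the endoplasmic reticulum. Of these 4 members, 2 had an unadjusted limma p under 0.05, as did 5750 of all 13817 genes. Psmb9 and Tap1 start 226 bases apart and run in opposite directions on chromosome 17.

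The sensors and factors that begin and carry the interferon signal had small differences. Ddx58 (RIG-I), Ifih1 and Zbp1 recognise virus or Z-form nucleic acid. Ddx58 read 8.36, 8.53 and 8.65 in wild-type and 8.78 and 8.71 in Frzb-/-, and the 3 sensors had log2 differences of 0.21 to 0.23, none of them passing or with an unadjusted limma p under 0.05. For Ddx58 the dimmer probe sets gave 0.17 and -0.30. Irf9, the DNA-binding partner of STAT2, read 8.45, 8.54 and 8.74 against 8.14 and 7.95, without overlap. Its log2 difference of -0.53 (limma adjusted p of 0.0329) did not pass. Stat2 had a difference of -0.27, Irf7, the factor that amplifies the type I response, -0.11, and Irf1, a factor downstream of interferon gamma, -0.20.

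Other inhibitors of virus RNA and replication lay near 0 as well. Oas1a makes oligoadenylates that switch on an RNase, and had a log2 difference of -0.18. Eif2ak2 (PKR), which halts translation on double-stranded RNA, had 0.00 at its brightest probe set and 0.37 and 0.53 at the others. Mx1, a GTPase known to be defective in many laboratory strains, had -0.12, Bst2, the tetherin that holds virions at the membrane, 0.06, and Samd9l -0.21. Oasl2 read 7.18, 7.25 and 7.62 in wild-type and 7.50 and 7.67 in Frzb-/-, a difference of 0.23 with overlapping groups.
Parp9 and Dtx3l encode partner proteins of ADP-ribosylation and ubiquitin transfer. Parp9 had a difference of 0.17, Parp14, a mono-ADP-ribosyltransferase, 0.09, and Dtx3l -0.32. The other probe set of Dtx3l gave -0.90 with a limma adjusted p of 0.00362, so that the size for this gene depends on the probe set.

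Of the remaining induced genes, Trim30a was down-regulated. It encodes a tripartite-motif protein known to restrain Toll-like receptor signalling, and read 9.45, 9.73 and 9.83 in wild-type, 8.64 and 8.49 in Frzb-/-, and 9.70 on the array titled 6. The groups did not overlap, the log2 difference was -1.10 ± 0.15 (SE, n = 3 and 2) and the limma adjusted p was 0.00325. A second probe set gave -1.29 (limma adjusted p of 0.00259). This is the passing member nearest to the fold minimum, and its call was lost without animal 8-1, 14 or 17.
Lgals3bp, Xaf1 and Rtp4 had positive differences under the fold minimum and no overlap between groups at their brightest probe sets. Lgals3bp, a secreted galectin-3 ligand, had 0.53 (limma adjusted p of 0.0151), Xaf1, which opposes an inhibitor of apoptosis, 0.50 (0.0369) and Rtp4, a receptor chaperone, 0.47 (0.0377). Ifi35 had -0.03.

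Neither of the motifs searched was in the windows of all 6 genes that passed. Rsad2, Trim30a, Ifit3 and Gbp2 held ISRE letters in the windows printed above and Ube2l6 and Cmpk2 did not, and none of the 6 held GAS letters. The median log2 difference was 0.04 over the 14 members with ISRE letters and -0.20 over the 16 without.

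For all 6 interferon-stimulated genes that passed, the value of the array titled 6 was nearer to the wild-type mean than to the Frzb-/- mean. The same held for 1216 of the 1250 genes that passed in all. Of the 6, Ifit3 was the furthest from its wild-type mean. There the array titled 6 read 0.45 above that mean and above all wild-type arrays. Over the 38 members its median difference from the wild-type mean was 0.10, with 24 positive, and it lay above all wild-type arrays for 12 members (31.6%, against 27.3% of all genes). With this array as a group of its own, limma called 0 of all 13817 genes (773 had an unadjusted p under 0.05), so that fit makes no statement on the members. Added to the Frzb-/- group, it left 0 of all 30618 probe sets past the thresholds, those of the members included, and 7 members had an unadjusted limma p under 0.05.

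The wild-type mice also differed among themselves. Animal 9-1 had the highest of the 3 wild-type values for 31 of the 38 members (81.6%), against 34.5% of all genes, 55.2% of the other interferon pathway genes and 57.1% of the leukocyte genes described below. The share was as high in the erythroid list (83.3% of 6 genes), and it was 71.4% of 7 genes of T and NK cells. The median deviation of the members from the wild-type mean was 0.11 in animal 9-1, -0.06 in 6-1 and -0.04 in 8-1. The members were chosen as a co-regulated list, so these counts describe 1 mouse and are not independent of each other.

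**Figure D4:**
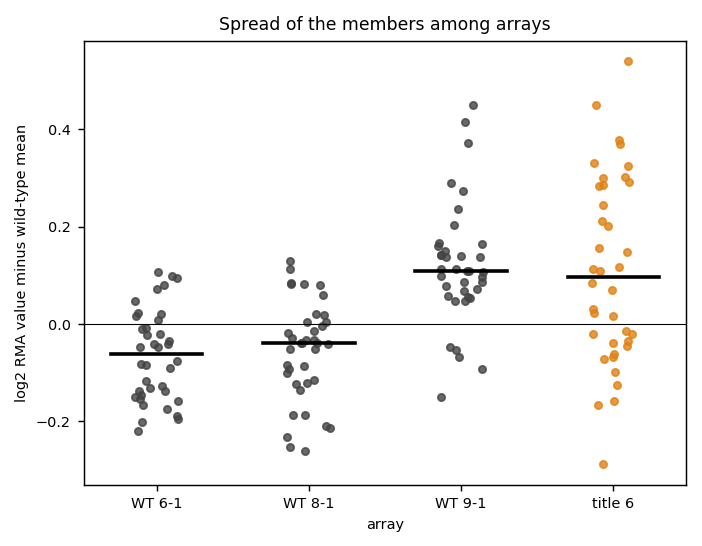
Deviation of each member from its wild-type mean (log2 units) on the wild-type arrays and on the array titled 6, with 1 point per gene and the median as a black bar. The median is 0.11 in animal 9-1, -0.06 in 6-1, -0.04 in 8-1 and 0.10 on the array titled 6.

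Other genes of the interferon pathway, none of them a member, were lower more often than higher. Of 90 genes on that list 67 were measured; 8 passed as lower and none as higher, and 12 had a positive and 26 a negative difference at an unadjusted limma p under 0.05. Over all 13817 genes, 2898 were positive and 2852 negative at that p. The median log2 difference of the list was -0.23, with 47 negative. The 11.9% that passed as lower compares with 6.02% of all genes. The count of lower genes was 3 without animal 8-1, 4 without 9-1 and 2 without 17.
Ifitm6, a membrane protein of the IFITM family, had the largest difference, -3.13, and is among the genes that the study itself picked from these arrays, so its direction is not independent evidence. Irf8, a factor of myeloid and dendritic cell development, read 9.90, 10.07 and 10.23 in wild-type and 8.64 and 7.63 in Frzb-/-, a difference of -1.93. Oas3, which makes oligoadenylates, read 7.52, 7.51 and 7.89 against 5.76 and 5.76, a difference of -1.88. Ptpn6, a phosphatase that dampens cytokine signals and is also on the leukocyte list below, had -1.84, Isg20, an RNA exonuclease, -1.74, Apobec3, a cytidine deaminase against retroviruses, -1.72, Ifitm1 -1.26 and Ifnlr1, a subunit of the lambda receptor, -1.01.

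The receptors that read type I interferon and interferon gamma did not pass. Ifnar1 had a log2 difference of 0.37, Ifnar2 of 0.19 and Ifngr1 of 0.09, and Ifngr2 read 8.48, 8.33 and 8.01 in wild-type and 8.31 and 8.23 in Frzb-/-. Of 8 ligand genes only Ifnb1 was measured, with a log2 difference of 0.28. Some genes of the list missed the fold minimum narrowly in either direction, and 5 missed only that minimum. Socs3, a brake on cytokine signals, had 0.97 (limma adjusted p of 0.0112) and Gbp6 0.95 (0.00432). Nlrc5, a regulator of class I genes, had -0.96 (0.00459), Plscr1 -0.95 (0.0155) and Pml -0.86 (0.00846). Socs3 and Plscr1 therefore missed both thresholds.

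**Figure D5:**
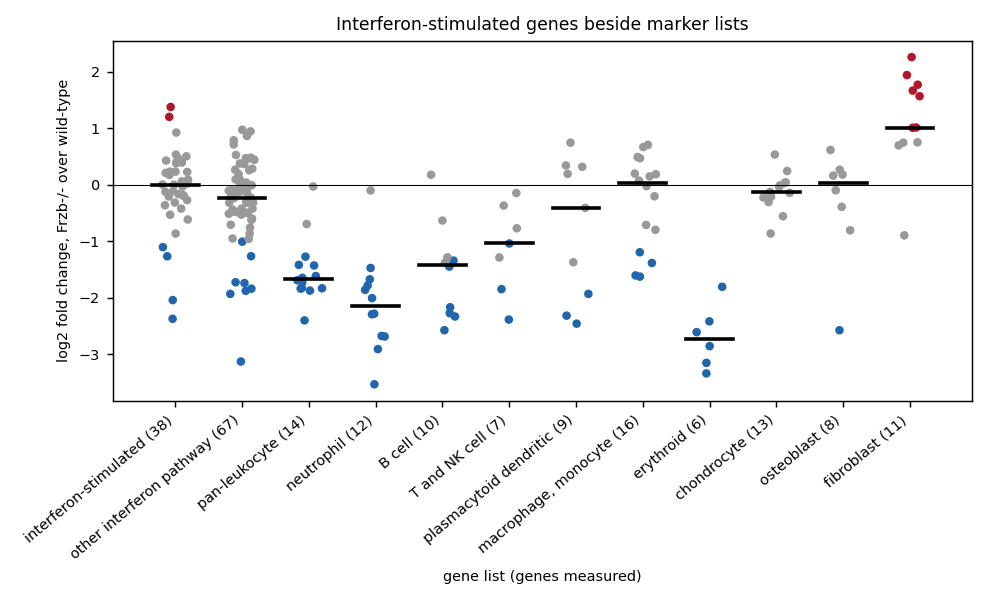
Log2 difference between the Frzb-/- and the wild-type arrays for the genes of each list, with 1 point per gene and the median as a black bar. Red and blue points passed as higher and as lower, and grey points did not pass. The medians are 0.00 for the interferon-stimulated genes, -0.23 for the other interferon pathway genes and -1.67 for the leukocyte genes.

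Markers of marrow cells moved with the groups. Of 14 genes of all leukocytes 12 were down-regulated, among them Ptprc (CD45) with a log2 difference of -1.83, and the median was -1.67. That count was 8 without animal 14, 5 without 8-1 and 1 without 17. The mean level of the list ran from 10.26 to 10.68 in wild-type and was 9.18 and 8.87 in animals 14 and 17. All 6 erythroid genes passed as lower, with a median of -2.73, as did 11 of 12 neutrophil genes, with a median of -2.14. Both lists, and the fibroblast list below, hold genes that the study itself picked from these arrays. The directions of those genes are not independent evidence. The B cell list had 6 of 10 lower and the T and NK cell list 3 of 7. Plasmacytoid dendritic cells are known for making type I interferon, and their list had 3 of 9 lower. Irf8, already counted on the pathway list above, is 1 of those 3. Of the same 9 genes 4 had positive differences, and the groups overlapped for 3. Of the macrophage and monocyte genes 4 of 16 were lower, with a median of 0.03.
Skeletal lists differed from these. No chondrocyte gene of 13 passed, with a median of -0.13 and 1 positive and 1 negative at an unadjusted limma p under 0.05. Of 8 osteoblast genes 1, Sost, was lower, and 7 of 11 fibroblast genes were higher, with a median of 1.01. Pi16, on the fibroblast list too, had a negative difference of -0.89 (limma adjusted p of 0.00887) and missed only the fold minimum. The lists' part in the levels of Rsad2, Ube2l6, Cmpk2, Trim30a, Ifit3 and Gbp2 was not tested.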

How the data were processed

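Tibial joint RNA of 6 mice was hybridised to Affymetrix mouse arrays, 1 mouse per array. The deposited values are log2 expression values per probe set, which the authors computed by RMA (background correction, quantile normalization and summary of probes) with affy 1.20.0, a version named in the submitters' processing notes. The table held 30618 probe sets, with array medians from 7.32 to 7.45. In the platform annotation 25090 probe sets had 1 gene, 677 had several and 4851 had none, and only those with 1 gene were given a name.

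Animals 14 and 17 were compared with the 3 wild-type animals by a linear model with eBayes moderation (limma 3.58.1, R 4.3.3). Tests were two-sided, and p-values were adjusted by Benjamini-Hochberg over all probe sets. A gene was called at an adjusted p under 0.01 with an absolute log2 difference above 1, the thresholds of the study's methods. The array titled 6 was fitted as a group of its own. Lists were described by counts and medians, with no test. Promoter windows were RefSeq's for GRCm38.p6, searched in Python 3.11.15 with pandas 2.3.3, and figures were drawn with matplotlib 3.10.9. The fit was tested on simulated data.

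The members, the lists and the rules were chosen with earlier results of these data known. All 38 measured members are named. Of the other pathway genes the rule named those called and the interferon receptors, and of the marker lists Ptprc. Socs3, Gbp6, Nlrc5, Plscr1, Pml, Ifnb1, Sost and Pi16 were added after their values were seen. The alternatives were the array titled 6 in the Frzb-/- group, leaving out each array, a filter at the median level, centring on the brighter probe sets, cyclic loess, robust or trended moderation, array weights, a looser threshold, and the mean of, or any of, a gene's probe sets.

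Arrays have no read depth, and the number of mice limits the precision. The p-values set the group difference against the spread between these mice, which limma moderates with that of all probe sets.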

Additional observations from a re-analysis of the deposited data

Results flagged for a closer look

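Oasl2, a relative of the oligoadenylate synthetases, drew attention on the array titled 6, which is in neither group of the main comparison. It read 7.89 there and 7.18, 7.25 and 7.62 on the wild-type arrays, 0.54 above the wild-type mean on the log2 scale. The array lay above all wild-type arrays, with an unadjusted limma p of 0.04, and the difference did not pass after adjustment. It rests on 1 array, whose own spread is unknown. The flag used only the brightest probe set of each gene. At dimmer probe sets the array titled 6 lay further above the wild-type mean for Eif2ak2, by 0.75 and 0.62. For Herc6 it did so at 1 dimmer probe set, by 0.73. Oasl2 therefore does not stand out as the only raised member. The array lay above all wild-type arrays for 12 of the 38 members and for 27.3% of all genes.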

How the results depend on the processing

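The 2 higher and 4 lower interferon-stimulated genes were also counted under cyclic loess, trended and robust moderation, array weights, centring on the brighter probe sets and any probe set of a gene. With the array titled 6 in the Frzb-/- group 0 of all 30618 probe sets passed, so both counts were 0 (7 of 38 members at an unadjusted limma p under 0.05), and the other pathway genes had 0 lower and a median of -0.13. Only probe sets above the median gave 1 higher. Ifit3, 1 of the 2 higher genes, had a mean percentile among all probe sets of 37.5 in wild-type and 62.2 in Frzb-/-. An adjusted p under 0.05 without a fold minimum gave 6 higher and 7 lower, and 9 and 19 for the other pathway genes. For the latter, higher genes numbered 2 after centring, 1 for the mean of a gene's probe sets and 1 for any probe set, which gave 13 lower. Leaving out 1 array gave 0 to 2 higher and 1 to 4 lower interferon-stimulated genes (0 and 1 without animal 17), and 0 to 1 higher and 2 to 8 lower other pathway genes with a median of -0.30 to -0.11. Why these counts moved was not tested.

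Signs turned for Herc6 and for some genes with small differences. With the array titled 6 included Mx1 was 0.043 and Irf7 0.020, cyclic loess gave Usp18 -0.00064 and Eif2ak2 -0.0044, array weights gave Eif2ak2 -0.0046, centring gave Ifi35 0.026, and the mean of probe sets gave Herc6 -0.21 and Ifi35 0.039. Leaving out 1 array gave ranges of -0.023 to 0.066 for Irgm1, -0.065 to 0.11 for Usp18, -0.064 to 0.068 for Eif2ak2, -0.093 to 0.28 for Parp14, -0.43 to 0.028 for Irf1 and -0.11 to 0.044 for Ifi35. The looser letters GAAA, any 2 bases and GAA were in 15 of the 30 members with a window and 9.76% of all genes. No paired analysis was possible because the labels give the wild-type and Frzb-/- mice no shared replicate numbers.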
